A study of Mus musculus with 21 samples.

Results

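The comparison described here is the miniSOX rescue of mouse embryonic stem cells against untransduced cells in serum and leukaemia inhibitory factor (LIF). Its members were taken by label: the 2 miniSOX libraries and the 2 untransduced (NTC) libraries grown in this medium (SL), 4 of the 21 libraries of the study, and all 16443 genes in the table. All libraries come from 2TS22C, an embryonic stem cell line known as one whose Sox2 is supplied by a transgene that doxycycline shuts off. NTC cells carry the genotype label WT, no virus and no listed treatment. The miniSOX cells were transduced with a miniSOX lentivirus, have endogenous SOX2 silenced and were treated with doxycycline (DOX). The other rescued lines, treated the same way, carry SOX2 or SOX17FNV (FNV), an engineered form of SOX17, and a second medium adds 2i, a pair of inhibitors of MEK and GSK3. The labels give miniSOX by name only, and they state neither the promoter of the virus nor whether a rescued line is a clone or a pool. Both miniSOX libraries were deposited in a second set, and both NTC libraries in a first set, so line, virus, doxycycline and deposit coincide and cannot be told apart in these 4 libraries.

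SOX2 is a transcription factor that binds DNA together with OCT4 (the product of Pou5f1) and keeps embryonic stem cells in the pluripotent state. SOX17 belongs to the same family, drives endoderm formation, and in its natural form prefers other DNA sites with OCT4. In serum and LIF medium, LIF acts through its receptor and STAT3 to hold back differentiation, while FGF and ERK signalling push towards the state of the early postimplantation embryo.

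The values are whole numbers that had been brought to a common distribution across libraries before deposit. Every library has nearly the same total (14044316 to 14047262) and a median of 214, read depth is unknown, and 10 genes share the highest value of 76006 in each of the 4 libraries. Replicate spread was small on this scale: replicates of the 3378 genes averaging 500 to 1500 differed on the log2 scale with an SD of 0.21 in NTC and 0.114 in miniSOX. The labels do not say whether replicates were separate cultures, and the p-values therefore rest on a spread between libraries that could be technical. Another 691 genes jump between 0 and values of 20 or more with nothing between, here called step genes. Changes are log2 differences on log2(value + 1), which understates the change of low genes. They come from a limma model of all 21 libraries that holds a term for the deposit, and a gene was called, and is said to rise or fall, at a Benjamini-Hochberg adjusted p under 0.05. The term can move a change away from the difference of the printed values. For some genes at or near 0 in miniSOX it gave larger decreases than the printed values do. That term is set by the 2i libraries of NTC, SOX2 and FNV that were deposited in both sets, among which NTC library p31 and NTC replicate 1 differed with an SD of 0.604 over the same genes. Names of the p31 and p21 columns follow another pattern than those of the miniSOX columns, so whether the term describes the miniSOX libraries was not tested.

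With the deposit term, 3221 genes (19.6% of those tested) were called: 1552 (9.44%) were higher and 1669 (10.2%) lower in miniSOX. At least 2-fold changes numbered 801 higher and 793 lower. Without the term, 3066 genes (18.6%) were called, 1544 higher (9.39%) and 1522 lower (9.26%). Both fits called 1975 genes in the same direction (12% of all genes, 61.3% of the calls with the term and 64.4% of those without), 968 higher (5.89%) and 1007 lower (6.12%), and 0 in opposite directions. A stricter group of 1054 genes (6.41%), 502 higher (3.05%) and 552 lower (3.36%), was called in the same direction with the term, without it, and with each of the 4 libraries left out in turn. These genes are said below to hold. Counts in the gene lists stand against these shares over all genes, and where leaving out a library or the deposit term moved a list's count by over 1.5 times, that count is given beside it. The median log2 change over all genes was -0.02. In 11939 genes (72.6%) the values of the 2 groups did not overlap, so lack of overlap by itself sets few genes apart here. Leaving out NTC replicate 1, miniSOX replicate 1 or miniSOX replicate 2 lowered the count of calls to 1877, 1893 and 1910, and a fit of the 4 libraries alone raised it to 6304.

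**Figure D1:**
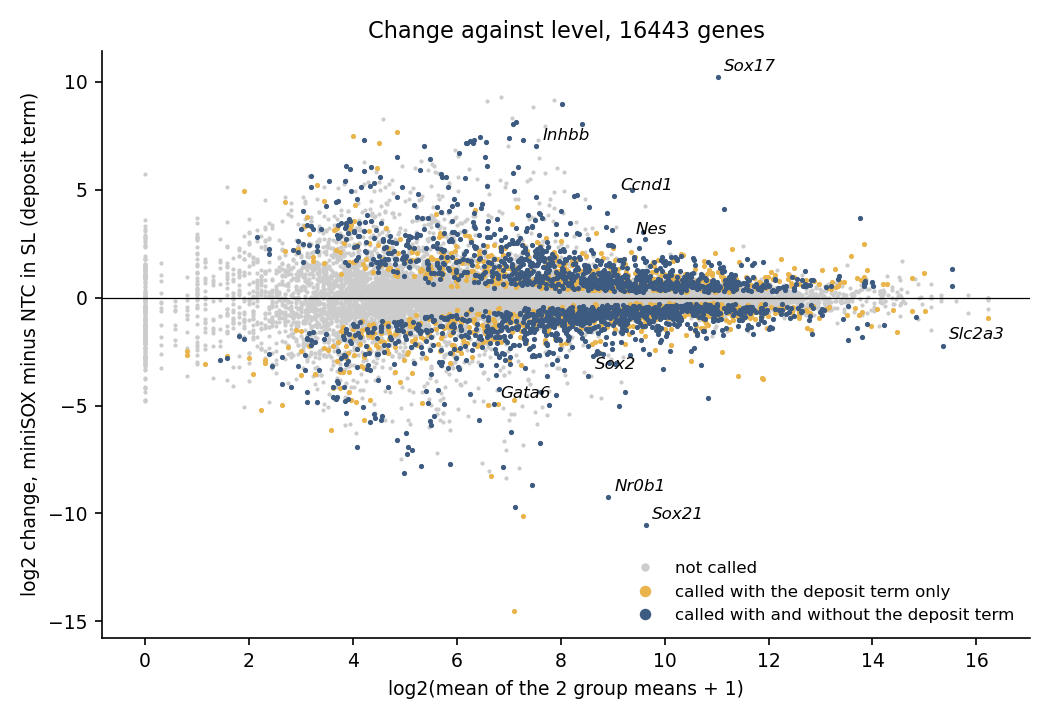
Log2 change of miniSOX against NTC in SL from the fit with the deposit term (vertical axis) against log2 of the mean of both group means plus 1 (horizontal axis), 1 point per gene for 16443 genes. Colours separate genes not called, called with the deposit term only, and called with and without it (1975 genes). Sox17 lies at the top and Sox21 and Nr0b1 near the bottom at medium to high levels, away from the spread of low genes.

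**Figure D2:**
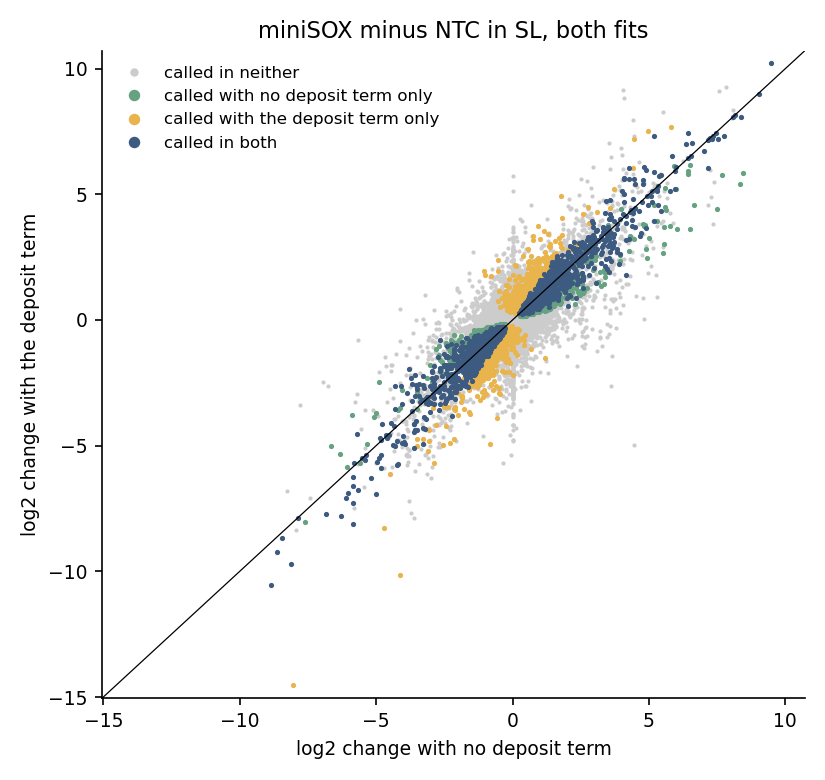
Log2 change of miniSOX against NTC in SL with the deposit term (vertical axis) against the change without it (horizontal axis), 1 point per gene, with the line of equality. Genes called in both fits (1975) lie in the 2 quadrants of equal sign, and 0 genes were called in opposite directions.

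The labels were checked first on the silenced gene. Sox2 (ENSMUSG00000074637, chromosome 3, 34650405 to 34652461 in mm10) stood at 533 and 843 in the NTC libraries and 48 and 55 in the miniSOX libraries (log2 change -3.62 ± 0.48 SE, adjusted p = 1.6e-04). Both miniSOX values lay below both NTC values, and they were near those of the FNV line (49 and 33), while the SOX2-rescued line gave 1389 and 921. Sox17 (ENSMUSG00000025902, chromosome 1, 4490931 to 4497354) stood at 6 and 4 in the NTC libraries and 4179 and 4138 in the miniSOX libraries (log2 change 10.21 ± 0.45 SE, adjusted p = 5.1e-09), the largest increase of all genes named here. It was close to 0 in the SOX2-rescued line (6 and 3) and higher still in FNV (13693 and 30391). Values are per gene, so RNA from the gene and RNA from an introduced sequence that matches it cannot be told apart.

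Further members of the Sox family fell. Of the family list, 2 of 11 measured members rose and 4 fell, of which 1 and 3 held, and the median log2 change was 0.07, or -0.21 without the deposit term (other fits gave 1 higher without each of the 4 SL libraries in turn or the deposit term). Sox21, which SOX2 is known to activate in stem cells, was 1456 and 1737 in the NTC libraries and 3 and 2 in the miniSOX libraries (log2 change -10.54 ± 0.65 SE, adjusted p = 1.2e-07), with -8.84 without the deposit term. Sox13, a factor of the SoxD group, was 354 and 402 in the NTC libraries and 49 and 43 in the miniSOX libraries (log2 change -3.64 ± 0.31 SE, adjusted p = 3.5e-06). Both genes were close to absent or sharply lower in each miniSOX library. Neither overlapped with NTC, as was so for 72.6% of all genes. FNV libraries held 4 and 4 for Sox21 and 208 and 167 for Sox13.

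**Figure D3:**
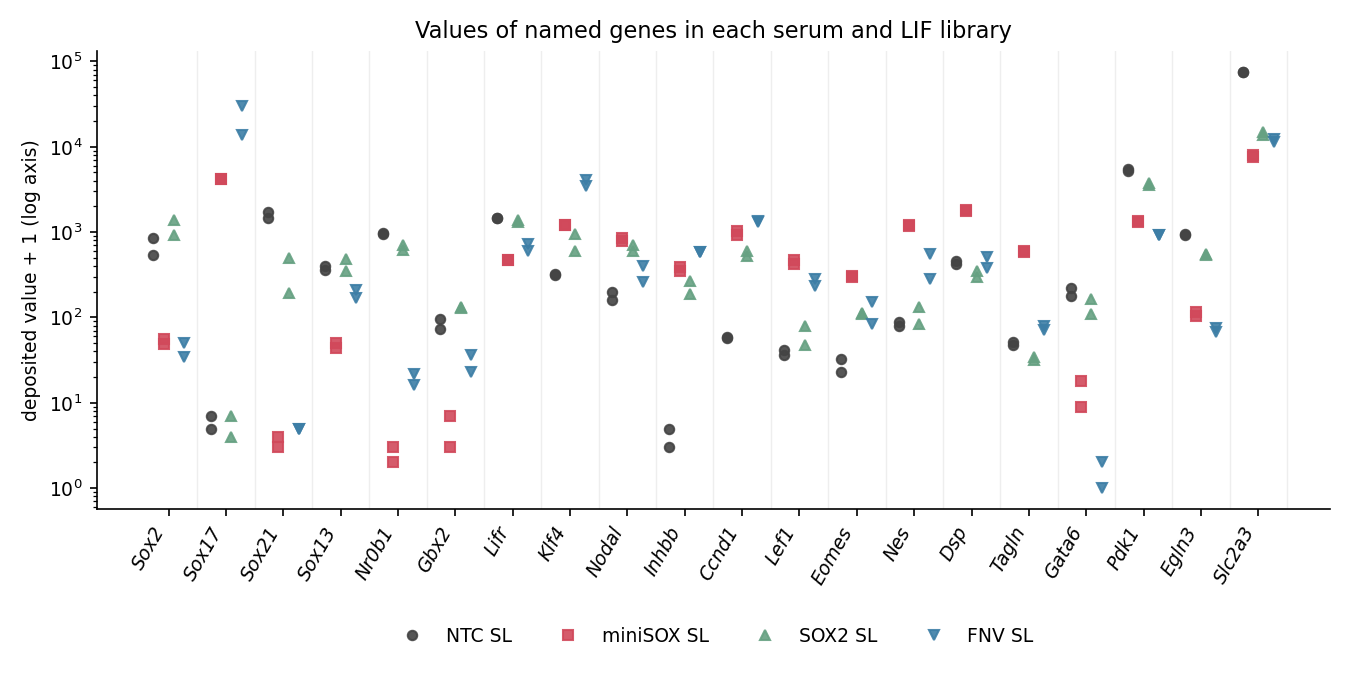
Deposited value plus 1 (logarithmic vertical axis) of 20 named genes in each SL library, with 2 points for each of NTC, miniSOX, SOX2 and FNV. The 2 miniSOX points lie outside the range of the 2 NTC points for every gene shown, from Sox2 (48 and 55 against 533 and 843) to Slc2a3 (7522 and 8024 against 76006). The 2 groups did not overlap in 72.6% of all genes. The miniSOX points are spread apart for Gbx2 (2 and 6) and Gata6 (17 and 8).

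Core stem cell markers were present in both lines. Pou5f1 was 6245 and 7522 in the NTC libraries and 8024 and 8269 in the miniSOX libraries and did not pass the test (log2 change 0.07, adjusted p = 0.87), with 0.20 without NTC replicate 2, -0.07 without NTC replicate 1 and 0.25 without the deposit term. Nanog was 8025 and 8025 in the NTC libraries and 4733 and 4525 in the miniSOX libraries, a decrease that missed the threshold with the deposit term (log2 change -0.44, adjusted p = 0.098) and passed without it (log2 change -0.79, adjusted p = 0.017). Summed over 6 embryonic stem cell markers, the level was 44778 and 46337 in NTC and 41781 and 41610 in miniSOX. Uncalled Dppa5a made up 13688 and 13688 of the NTC sums and 16422 and 16422 of the miniSOX sums, so the sums join members that moved in opposite directions. Esrrb, an orphan nuclear receptor of the naive network, fell from 6370 and 6370 to 3265 and 3265 (log2 change -0.76 ± 0.16 SE, adjusted p = 0.0049). Pou5f1, Nanog, Esrrb, Elf3, Eno1, Gpi1, Asns, Slc7a11 and the genes of the closing section were named after their values were seen.

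Among naive pluripotency genes, 4 of 20 measured members rose and 6 fell, of which 1 and 3 held, and the median log2 change was -0.48, or -0.30 without the deposit term (other fits gave 1 higher without the deposit term). The members moved in both directions. Nr0b1 (DAX1), a repressor that binds OCT4, fell from 976 and 958 to 1 and 2 (log2 change -9.25 ± 0.88 SE, adjusted p = 9.4e-06), with -8.63 without the deposit term. Gbx2, a homeobox gene downstream of LIF and STAT3, fell from 73 and 94 to 2 and 6 (log2 change -5.72 ± 0.88 SE, adjusted p = 5.1e-04), with -4.19 without the deposit term. The opposite change was seen in Klf4, a Krüppel-like factor of the naive network, which rose from 317 and 318 to 1207 and 1212 (log2 change 1.86 ± 0.30 SE, adjusted p = 7.2e-04). Of the general pluripotency list, 2 of 15 measured members rose and 0 fell, of which 1 and 0 held, and the median log2 change was 0.28, or 0.51 without the deposit term (other fits gave 1 higher without NTC replicate 1, miniSOX replicate 1 or miniSOX replicate 2). Its held member Rex2, a zinc finger gene, rose from 3898 and 4034 to 8025 and 8025 (log2 change 0.86, adjusted p = 6.4e-04). In SL, Rex2 was 9105 and 7061 in FNV and 7524 and 6700 in SOX2. In 2i it was 7061, 6871 and 7310 in NTC, so NTC in SL was the low group.

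The genes of the LIF receptor and of STAT3 both fell. In the list of LIF receptor and STAT3 pathway genes, 1 of 15 measured members rose and 4 fell, of which 1 and 3 held, and the median log2 change was -0.34, or -0.34 without the deposit term (other fits gave 2 higher without the deposit term). Lifr, the ligand-binding receptor chain, fell from 1482 and 1452 to 470 and 472 (log2 change -2.06 ± 0.20 SE, adjusted p = 1.2e-05). Stat3, the transcription factor it activates, fell from 940 and 823 to 347 and 341 (log2 change -1.03 ± 0.20 SE, adjusted p = 0.0027). Gbx2 and Klf4, described above, belong to this list as well. The inhibitor Socs3, the kinase gene Jak1 and the cytokine gene Lif did not pass the test.

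Genes of the formative and primed states, which mark cells leaving naive pluripotency, showed 2.44 for Nodal and 4.14 for Fgf5 as their held log2 changes. In this list 4 of 16 measured members rose and 2 fell, of which 2 and 0 held, and the median log2 change was 1.08, or 0.65 without the deposit term (other fits gave 0 lower without each of the 4 SL libraries in turn, 1 lower without the deposit term). Fgf5, the standard marker of the early epiblast, was 10 and 7 in NTC and 187 and 145 in miniSOX (log2 change 4.14 ± 0.75 SE, adjusted p = 0.0017), and with a pseudocount of 0.1 the call was lost (adjusted p = 0.071). Nodal, a TGF-beta family ligand, was 196 and 161 in NTC and 796 and 859 in miniSOX (log2 change 2.44 ± 0.37 SE, adjusted p = 5.0e-04). Fgf5 was 0 in all 5 NTC and miniSOX libraries in 2i.

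Nodal signalling genes included 2 ligand genes among the held increases. In the Nodal pathway list, 4 of 13 measured members rose and 1 fell, of which 2 and 0 held, and the median log2 change was 0.57, or 0.23 without the deposit term (other fits gave 2 higher without NTC replicate 2 or miniSOX replicate 2, 0 lower without NTC replicate 1, 2 lower without NTC library p31). Inhbb, which encodes the beta B subunit of activin and inhibin, was 4 and 2 in the NTC libraries and 347 and 386 in the miniSOX libraries (log2 change 7.04 ± 0.60 SE, adjusted p = 3.5e-06). It was also present in the SOX2-rescued (270 and 188) and FNV (589 and 583) libraries in SL. The Nodal targets and antagonists Lefty1 and Lefty2 and the co-receptor gene Tdgf1 did not pass the test. Of the BMP pathway and Id genes, 0 of 11 measured members rose and 1 fell, of which 0 and 0 held, and the median log2 change was -0.03, or -0.40 without the deposit term (other fits gave 1 higher without NTC library p31, 0 lower without NTC replicate 1 or miniSOX replicate 1).

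Signalling through FGF and ERK was represented by 2 lists. Among FGF ligands and receptors, 3 of 11 measured members rose and 4 fell, of which 1 and 1 held, and the median log2 change was -0.17, or -0.10 without the deposit term (other fits gave 1 lower without the deposit term). Fgf10, a ligand known from limb and lung development, fell from 277 and 293 to 102 and 53 (log2 change -2.72, adjusted p = 6.4e-04). Among ERK feedback and ETS targets, 1 of 15 measured members rose and 3 fell, of which 1 and 2 held, and the median log2 change was -0.68, or -0.28 without the deposit term (other fits gave 2 higher without NTC library p31 or the deposit term). Ccnd1, which encodes cyclin D1, rose from 58 and 56 to 1037 and 924 (log2 change 4.70 ± 0.25 SE, adjusted p = 2.1e-08). The held decreases of this list were Spred1 and Ier3. Spred1, an inhibitor of RAS and RAF signalling, fell from 1265 and 1178 to 654 and 631 (log2 change -1.32, adjusted p = 9.8e-06). Ier3, an immediate early response gene, fell from 420 and 368 to 94 and 113 (log2 change -1.94, adjusted p = 3.0e-04). The phosphatase genes Dusp4, Dusp5 and Dusp6 and the ETS genes Etv1, Etv4 and Etv5 did not pass the test.

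Wnt targets went in both directions. For this list, 2 of 13 measured members rose and 3 fell, of which 2 and 1 held, and the median log2 change was 0.95, or 0.50 without the deposit term. Lef1, a DNA-binding partner of beta-catenin, rose from 41 and 35 to 464 and 422 (log2 change 2.94 ± 0.54 SE, adjusted p = 0.0017). Notum, a secreted Wnt-inactivating enzyme, was 11 and 20 in NTC and 0 and 0 in miniSOX (log2 change -4.84 ± 0.55 SE, adjusted p = 4.2e-05). The common readouts Axin2 and Sp5 did not pass the test. Ccnd1 is counted in this list too. In the Notch pathway, 2 of 12 measured members rose and 3 fell, of which 0 and 1 held, and the median log2 change was -0.43, or -0.91 without the deposit term (other fits gave 0 higher without NTC replicate 2, miniSOX replicate 1, miniSOX replicate 2 or the deposit term, 1 higher without NTC replicate 1 or NTC library p31). The receptor gene Notch1 fell from 2038 and 1749 to 947 and 979 (log2 change -1.42, adjusted p = 6.8e-04).

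**Figure D4:**
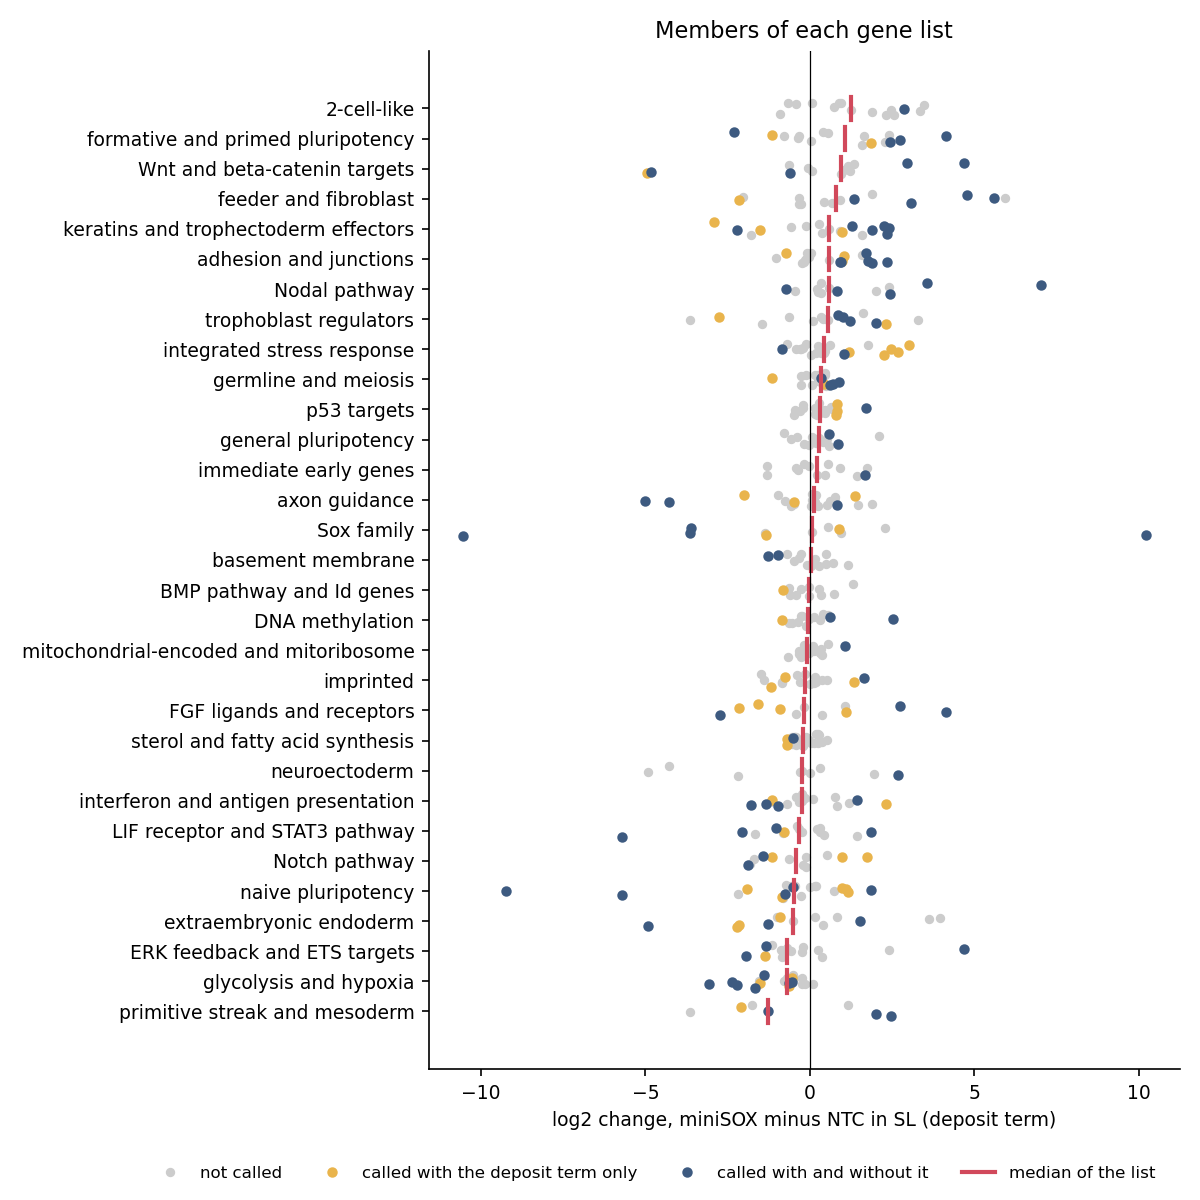
Log2 change of miniSOX against NTC in SL (horizontal axis, fit with the deposit term) of each measured member of 31 gene lists, 1 point per gene, ordered by the list's median (vertical bar). Point colours separate members not called, called with the deposit term only, and called with and without it. Glycolysis and hypoxia members are called on the lower side only, and the Sox family holds the widest range, from Sox21 (-10.54) to Sox17 (10.21).

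Epithelial junction genes were the list with the most held increases. Of the adhesion and junctions list, 8 of 19 measured members rose and 1 fell, of which 6 and 0 held, and the median log2 change was 0.60, or 0.38 without the deposit term (other fits gave 0 lower without each of the 4 SL libraries in turn or the deposit term). Dsp, the desmosomal protein desmoplakin, rose from 452 and 417 to 1775 and 1824 (log2 change 1.89 ± 0.28 SE, adjusted p = 3.7e-04). Tight junction genes rose as well, with Cldn7 from 115 and 77 to 319 and 263 (log2 change 2.34, adjusted p = 0.0063). Cgn, which encodes cingulin, rose from 364 and 405 to 951 and 1010 (log2 change 1.79, adjusted p = 0.0071). Esrp1, an epithelial splicing factor, rose from 467 and 395 to 1142 and 1211 (log2 change 1.71, adjusted p = 0.0082). Values of the 2 groups did not overlap for any of these genes, as was so for 72.6% of all genes. E-cadherin (Cdh1), N-cadherin (Cdh2) and the claudins Cldn3 and Cldn6 did not pass the test.

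Several genes of the trophoblast, the outer lineage of the blastocyst, rose. Among its regulators, 5 of 15 measured members rose and 1 fell, of which 3 and 0 held, and the median log2 change was 0.54, or 0.85 without the deposit term (other fits gave 3 higher without miniSOX replicate 2, 0 lower without each of the 4 SL libraries in turn, NTC library p31 or the deposit term). Eomes, a T-box factor of trophoblast and primitive streak, was 22 and 32 in NTC and 302 and 296 in miniSOX (log2 change 2.02 ± 0.44 SE, adjusted p = 0.0057), and its change was 3.44 without the deposit term. Ets2, a factor of trophoblast stem cells, rose from 292 and 294 to 602 and 585 (log2 change 1.21, adjusted p = 1.0e-03), and Elf3, an epithelial ETS factor, rose from 702 and 685 to 1414 and 1332 (adjusted p = 4.7e-04). Among keratins and trophectoderm effectors, 6 of 17 measured members rose and 3 fell, of which 5 and 1 held, and the median log2 change was 0.60, or 0.74 without the deposit term (other fits gave 1 lower without the deposit term). Aqp3, a water channel, rose from 136 and 131 to 387 and 396 (log2 change 2.27, adjusted p = 2.1e-05). Lgals3, which encodes galectin 3, rose from 189 and 281 to 796 and 780 (log2 change 2.40, adjusted p = 0.007). Tinagl1, a secreted matrix protein, rose from 340 and 366 to 675 and 713 (log2 change 1.29, adjusted p = 0.0053). The other held increases of this list were Dsp and Cldn7, counted among the junction genes as well. Its held decrease was Slc2a3, counted under glycolysis too. The regulators Gata3, Elf5 and Tfap2c and the keratins Krt7, Krt8, Krt18 and Krt19 did not pass. Cdx2, the defining regulator, held 0 and 2 in NTC and 0 and 1 in miniSOX. Over 6 trophoblast markers the summed level was 651 and 560 in NTC and 1730 and 1679 in miniSOX. The uncalled keratin Krt7 made up 564 and 434 of the NTC sums and 1201 and 1149 of the miniSOX sums. The part of such cells in the result was not tested. In bulk RNA, more cells of a type and more RNA per cell cannot be told apart.

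Extraembryonic endoderm, the lineage that natural SOX17 is known for, was covered by a list of its own. In it, 1 of 13 measured members rose and 5 fell, of which 0 and 1 held, and the median log2 change was -0.51, or 0.15 without the deposit term (other fits gave 0 higher without each of the 4 SL libraries in turn, 2 lower without the deposit term, 3 lower without NTC replicate 1 or miniSOX replicate 1). The share that rose was near the 9.44% of all genes. Gata6, its leading regulator, fell from 176 and 218 to 17 and 8 (log2 change -4.93 ± 0.51 SE, adjusted p = 1.9e-05), with -3.95 without the deposit term. It was at 1 and 0 in the FNV line. Of 8 endoderm markers 5 were in the table, with a summed level of 583 and 565 in NTC and 499 and 491 in miniSOX. Uncalled Dab2 made up 227 and 207 of the NTC sums and 390 and 399 of the miniSOX sums. Besides Gata6, Pdgfra fell, from 180 and 140 to 61 and 66 (log2 change -1.29, adjusted p = 0.021). Its call was kept without the deposit term but did not hold. Afp and Ttr, at low values, did not pass the test. Basement membrane genes, which endoderm produces in quantity, gave the following: 0 of 15 measured members rose and 2 fell, of which 0 and 2 held, and the median log2 change was 0.05, or -0.06 without the deposit term (other fits gave 1 higher without the deposit term, 4 lower without NTC library p31). Hspg2, the proteoglycan perlecan, fell from 25021 and 30391 to 10054 and 10741 (log2 change -1.29, adjusted p = 6.4e-04), and Plod2, a collagen-modifying enzyme, fell from 3185 and 3237 to 1146 and 1149 (log2 change -0.97, adjusted p = 0.0028), with -1.48 without the deposit term. The laminin genes Lama1, Lamb1 and Lamc1 and the collagen genes Col4a1 and Col4a2 did not pass the test.

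Other lineages were represented by single genes. Of 9 measured neuroectoderm genes, 1 rose and 0 fell, and the median log2 change was -0.24, or -0.95 without the deposit term (other fits gave 2 lower without miniSOX replicate 1). Nes, which encodes the intermediate filament nestin, was the gene that rose, from 87 and 78 to 1186 and 1201 (log2 change 2.69 ± 0.30 SE, adjusted p = 4.1e-05), and its call held. The neuronal genes Tubb3, Map2 and Dcx did not pass. In the primitive streak and mesoderm list, 2 of 7 measured members rose and 2 fell, of which 1 and 0 held, and the median log2 change was -1.29, or 0 without the deposit term (other fits gave 1 higher without NTC replicate 1 or miniSOX replicate 2, 1 lower without NTC replicate 1, miniSOX replicate 1, miniSOX replicate 2 or the deposit term). Its held member was Eomes.

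Some mesenchymal genes rose. In the feeder and fibroblast list, 4 of 14 measured members rose and 1 fell, of which 3 and 0 held, and the median log2 change was 0.79, or 0.49 without the deposit term (other fits gave 0 lower without the deposit term). Tagln, the smooth muscle protein transgelin, was 47 and 50 in NTC and 583 and 599 in miniSOX (log2 change 4.78 ± 0.57 SE, adjusted p = 7.1e-05). Thy1, a surface protein of fibroblasts, was 4 and 5 in NTC and 105 and 103 in miniSOX (log2 change 5.60 ± 0.77 SE, adjusted p = 2.0e-04). Col1a1, a fibrillar collagen chain, rose from 42 and 55 to 221 and 325 (log2 change 3.07, adjusted p = 7.6e-04). Vim, which encodes vimentin, fell from 855 and 880 to 343 and 339 (log2 change -2.15, adjusted p = 0.0016), a call lost without the deposit term (log2 change -1.34, adjusted p = 0.058). Over 7 fibroblast or feeder markers the summed level was 291 and 309 in NTC and 990 and 1187 in miniSOX, with 2 of them at 0 in each NTC library and 1 in each miniSOX library. FNV libraries in SL summed to 834 and 855, of which Thy1 made up 530 and 523. In them Col1a1 was 28 and 53, Acta2 68 and 77 and Dcn 105 and 92. Among these markers only Col1a1 and Thy1 were called, while Acta2, Col1a2, Col3a1, Dcn and Lum did not pass with the deposit term. Uncalled Acta2 made up 103 and 115 of the NTC sums and 373 and 442 of the miniSOX sums. The part of carried-over fibroblasts in the results was not tested.

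In the glycolysis and hypoxia list all calls were decreases. Of this list, 0 of 21 measured members rose and 10 fell, of which 0 and 6 held, and the median log2 change was -0.69, or -1.05 without the deposit term (other fits gave 6 lower without miniSOX replicate 2). Pdk1, a kinase that inhibits mitochondrial pyruvate dehydrogenase, fell from 5475 and 5265 to 1347 and 1316 (log2 change -1.66 ± 0.22 SE, adjusted p = 1.5e-04). Egln3, an oxygen-sensing prolyl hydroxylase that HIF itself induces, fell from 956 and 927 to 103 and 116 (log2 change -3.06 ± 0.34 SE, adjusted p = 3.7e-05). Slc2a3, the glucose transporter GLUT3, stood at the highest value of the table in both NTC libraries (76006) and at 7522 and 8024 in miniSOX (log2 change -2.22 ± 0.51 SE, adjusted p = 0.007). Since 10 genes share that value, its level in NTC has no finer reading. Ankrd37, a HIF target, fell from 170 and 174 to 44 and 35 (log2 change -2.36, adjusted p = 0.0027). The glycolytic enzymes Eno1 and Gpi1 fell from 19697 and 19697 to 7059 and 7059 (log2 change -1.38, adjusted p = 1.3e-04) and from 11819 and 9718 to 6245 and 6370 (log2 change -0.55, adjusted p = 0.0027). Gapdh, Tpi1 and Aldoa did not pass. In the FNV line Pdk1 was 929 and 929 and Egln3 75 and 66, and in the SOX2 line 3725 and 3579 and 538 and 560.

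Further lists covered metabolism and stress. In the integrated stress response list, 6 of 23 measured members rose and 1 fell, of which 1 and 1 held, and the median log2 change was 0.43, or 0.39 without the deposit term (other fits gave 2 higher without the deposit term, 2 lower without NTC library p31). Pck2 and Phgdh, enzymes of gluconeogenesis and serine synthesis, were called with the deposit term (log2 changes 3.02 and 2.27) and not without it (1.37 and 0.80). The held members were Slc7a11, the cystine transporter, which rose from 85 and 81 to 233 and 196 (log2 change 1.04, adjusted p = 0.0046), and Asns, asparagine synthetase, which fell from 9368 and 9368 to 4901 and 4972 (log2 change -0.84, adjusted p = 7.2e-04). Among interferon and antigen presentation genes, 2 of 18 measured members rose and 4 fell, of which 0 and 3 held, and the median log2 change was -0.24, or -0.37 without the deposit term (other fits gave 1 higher without NTC replicate 2 or miniSOX replicate 1). Held decreases make up 3.36% of all genes. Ifitm1, an interferon-induced membrane protein, fell from 1509 and 1428 to 645 and 603 (log2 change -1.77, adjusted p = 2.6e-04). Among p53 targets, 4 of 19 measured members rose and 0 fell, of which 1 and 0 held, and the median log2 change was 0.32, or 0.02 without the deposit term (other fits gave 1 higher without NTC replicate 2, miniSOX replicate 1, miniSOX replicate 2 or the deposit term, 2 higher without NTC replicate 1, 1 lower without the deposit term). Its held member Perp, a desmosomal protein, rose from 128 and 130 to 380 and 363 (log2 change 1.70, adjusted p = 5.2e-05). Of sterol and fatty acid synthesis genes, 0 of 23 measured members rose and 3 fell, of which 0 and 0 held, and the median log2 change was -0.21, or 0.12 without the deposit term (other fits gave 2 higher without the deposit term, 3 higher without NTC library p31, 1 lower without NTC replicate 2, miniSOX replicate 1 or miniSOX replicate 2). Of mitochondrial-encoded and mitoribosome genes, 1 of 20 measured members rose and 0 fell, of which 0 and 0 held, and the median log2 change was -0.08, or 0.13 without the deposit term (other fits gave 0 higher without NTC replicate 1, miniSOX replicate 1 or miniSOX replicate 2, 2 higher without NTC library p31). Of immediate early genes, 1 of 13 measured members rose and 0 fell, of which 0 and 0 held, and the median log2 change was 0.20, or 0.25 without the deposit term (other fits gave 0 higher without NTC replicate 1, miniSOX replicate 1 or miniSOX replicate 2, 2 higher without NTC library p31, 3 higher without the deposit term).

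Germline genes and DNA methylation enzymes were read against the 9.44% of all genes that rose. Of the germline and meiosis list, 5 of 20 measured members rose and 1 fell, of which 2 and 0 held, and the median log2 change was 0.34, or -0.004 without the deposit term (other fits gave 2 higher without miniSOX replicate 1, 3 higher without NTC replicate 1 or NTC replicate 2, 0 lower without each of the 4 SL libraries in turn or the deposit term). Ddx4, the germ cell helicase VASA, rose from 348 and 329 to 539 and 566 (log2 change 0.71, adjusted p = 0.0029), and Stk31 rose from 949 and 904 to 1362 and 1356 (log2 change 0.63, adjusted p = 7.9e-04). In the DNA methylation list, 2 of 14 measured members rose and 1 fell, of which 2 and 0 held, and the median log2 change was -0.07, or 0.27 without the deposit term (other fits gave 0 lower without each of the 4 SL libraries in turn or the deposit term, 2 lower without NTC library p31). Tdg, the glycosylase of active demethylation, rose from 976 and 924 to 1545 and 1405 (log2 change 0.62, adjusted p = 0.0063). Apobec2, a deaminase family member, rose from 49 and 62 to 211 and 246 (log2 change 2.52, adjusted p = 2.5e-04). The methyltransferase genes Dnmt1, Dnmt3a and Dnmt3b and Tet1 and Tet3 did not pass. Of 15 measured 2-cell-like genes, 1 rose and 0 fell (other fits gave 2 higher without miniSOX replicate 1, 4 higher without the deposit term, 6 higher without NTC library p31), and the Zscan4 genes did not pass. That gene was Tmem92, at 2 and 3 in NTC and 18 and 27 in miniSOX (log2 change 2.85, adjusted p = 0.003), and its call held. The list's median log2 change was 1.26.

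Among imprinted genes, 2 of 17 measured members rose and 2 fell, of which 1 and 0 held, and the median log2 change was -0.13, or -0.15 without the deposit term (other fits gave 1 higher without each of the 4 SL libraries in turn or the deposit term, 0 lower without NTC replicate 1, miniSOX replicate 1, miniSOX replicate 2 or the deposit term, 1 lower without NTC replicate 2). Snrpn, expressed from the paternal copy of the Prader-Willi region, rose from 1971 and 1962 to 5797 and 5573 (log2 change 1.64 ± 0.25 SE, adjusted p = 5.5e-04). Magel2 of the same region, not in the list, rose from 0 and 1 to 267 and 346 (log2 change 7.30 ± 0.78 SE, adjusted p = 2.5e-05). Both genes were also high in FNV in SL (Snrpn 7522 and 9718, Magel2 102 and 111) and at NTC-like levels in the SOX2 line (1842 and 2199 and 3 and 2). Guidance molecules of axons and vessels included 2 of the larger held decreases. In the axon guidance list, 2 of 23 measured members rose and 4 fell, of which 1 and 2 held, and the median log2 change was 0.12, or 0.10 without the deposit term (other fits gave 1 higher without NTC replicate 2, miniSOX replicate 1 or miniSOX replicate 2, 4 higher without the deposit term, 2 lower without the deposit term). Nrp2, a receptor of semaphorins and VEGF, fell from 1035 and 1082 to 51 and 54 (log2 change -5.01 ± 0.36 SE, adjusted p = 8.4e-07). The ligand Ntn1 (netrin 1) fell from 99 and 79 to 11 and 6 (log2 change -4.28 ± 0.47 SE, adjusted p = 3.0e-05).

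The largest changes were mostly of another kind. Of the 12 largest increases and 12 largest decreases (predicted genes left out), 9 and 6 were step genes. Cdh19, a cadherin, was 0 and 0 in NTC and 308 and 256 in miniSOX (log2 change 8.14, adjusted p = 3.8e-07), with 226 and 194 in FNV and 0 in both SOX2 libraries. Sva was 0 and 0 in NTC and 301 and 237 in miniSOX. Ccr2, a chemokine receptor gene, was 0 and 0 in NTC and 149 and 172 in miniSOX. Both were 0 in all other libraries, 2i included. Against these, Olfr901, an olfactory receptor gene, was 383 and 317 in NTC and 0 and 0 in miniSOX, and it lay between 351 and 491 in the SOX2 and FNV libraries in SL and in NTC and miniSOX in 2i. Over all genes, 35 of the 691 step genes were called, and leaving them out gave 3259 calls in place of 3221. Sgcz, a sarcoglycan gene that is not a step gene, was 123 and 107 in NTC and 0 and 0 in miniSOX (log2 change -7.71, adjusted p = 2.1e-08), with -6.85 without the deposit term. It was also 0 and 0 in the FNV libraries in SL, and 28 and 18 in the SOX2 libraries.

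A second question was whether the line difference depended on the medium. In 2i, 3 NTC libraries and 2 miniSOX libraries gave 4561 called genes (27.7%), 2347 higher (14.3%) and 2214 lower (13.5%). Genes called in the same direction in SL and 2i numbered 1443 (44.8% of the SL calls and 31.6% of the 2i calls), and 152 were called in opposite directions. Those contrasts share the deposit term. Without it they share no library, and 1010 genes had the same direction (32.9% and 32.1%) and 123 opposite ones. A test of the difference itself (the SL change minus the 2i change) called 2248 genes (13.7%), 980 (5.96%) with a higher and 1268 (7.71%) with a lower change in SL. Without the deposit term it called 1191. Leaving out miniSOX replicate 1 or 2 in 2i gave 2843 and 2718 calls in 2i, and the test of difference gave 1298 without NTC replicate 1 in SL, 1313 and 1369 without miniSOX replicate 1 or 2 in SL, and 1341 and 1272 without miniSOX replicate 1 or 2 in 2i.

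Sox2 and Sox17 did not pass this test of difference: in 2i the values of Sox2 were 1310, 1362 and 2697 in NTC and 47 and 60 in miniSOX, and those of Sox17 were 1, 0 and 0 in NTC and 1813 and 1953 in miniSOX. The estimates were 1.31 ± 0.56 SE, adjusted p = 0.14 for Sox2 and -0.84 ± 0.53 SE, adjusted p = 0.33 for Sox17. Some genes called in SL moved the other way in 2i. Gata6 was 20, 16 and 76 in NTC and 157 and 165 in miniSOX in 2i, a log2 change of 1.77 against -4.93 in SL (difference -6.70 ± 0.59 SE, adjusted p = 9.2e-06). So the endoderm regulator rose in 2i and fell in SL. Eomes was 26, 29 and 83 in NTC and 10 and 12 in miniSOX, and its change of -2.72 in 2i stood against 2.02 in SL (difference 4.74 ± 0.52 SE, adjusted p = 5.2e-05). Lef1 behaved alike, with 65, 68 and 286 in NTC and 20 and 23 in miniSOX and a difference of 5.61 ± 0.63 SE, adjusted p = 6.2e-05. Both genes fell in 2i and rose in SL.

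For Ccnd1 the level of NTC itself differed between media. Ccnd1 in 2i was 1742, 2054 and 1261 in NTC and 1627 and 1521 in miniSOX, so the NTC libraries in SL, at 58 and 56, were the low ones, and the difference was 4.36 ± 0.29 SE, adjusted p = 7.0e-07. Ntn1 was 1182, 1037 and 1918 in NTC and 9 and 9 in miniSOX, and it fell in both media, further in 2i (difference 3.44 ± 0.54 SE, adjusted p = 0.001). Kctd12b, a step gene, was 1051 and 1068 in NTC and 1094 and 1251 in miniSOX in SL and 554, 577 and 861 in NTC and 0 and 0 in miniSOX in 2i (difference 9.35 ± 0.30 SE, adjusted p = 7.4e-11). Tiam1, a RAC activator, was 369 and 336 in NTC and 622 and 629 in miniSOX in SL and 519, 460 and 898 in NTC and 115 and 107 in miniSOX in 2i (difference 2.95 ± 0.18 SE, adjusted p = 3.9e-07), and its SL change was -0.08 with the deposit term and 0.83 without it. Mymx, a small membrane protein of muscle cell fusion, fell from 855 and 862 to 44 and 40 in SL and was 831, 839 and 276 in NTC and 388 and 411 in miniSOX in 2i (difference -3.23 ± 0.22 SE, adjusted p = 9.1e-07), and its SL change was -2.63 with the deposit term and -4.32 without it. Fig4, a phosphoinositide phosphatase, was 936 and 976 in NTC and 745 and 757 in miniSOX in SL and 867, 873 and 1142 in NTC and 2715 and 2864 in miniSOX in 2i (difference -1.99 ± 0.15 SE, adjusted p = 2.4e-06), and its call in SL was lost without the deposit term. Otor, a step gene, was 56 and 82 in NTC and 0 and 0 in miniSOX in SL and 69, 62 and 163 in NTC and 112 and 137 in miniSOX in 2i (difference -6.90 ± 0.40 SE, adjusted p = 1.7e-07), and Olfr901, given above, differed by -8.59 ± 0.19 SE, adjusted p = 9.4e-13. Otor was also at 0 in the FNV and SOX2 libraries in SL. Nodal, Fgf5, Nes and Tagln had larger changes in SL than in 2i, with differences of 1.60, 4.14, 2.75 and 2.78, each past the threshold. Over all genes, 14.3% rose and 13.5% fell in 2i. The test of difference put the SL change higher in 5.96% of them and lower in 7.71%. By list, in 2i 5 of 13 extraembryonic endoderm genes rose and 0 fell. For 5 of the 13 the SL change was lower than the 2i change by the test of difference. Of 21 glycolysis and hypoxia genes 0 rose and 16 fell in 2i, and for 4 (Egln3, Pkm, Slc16a3 and Pgk1) the test of difference found the SL change to be the less negative one.

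**Figure D5:**
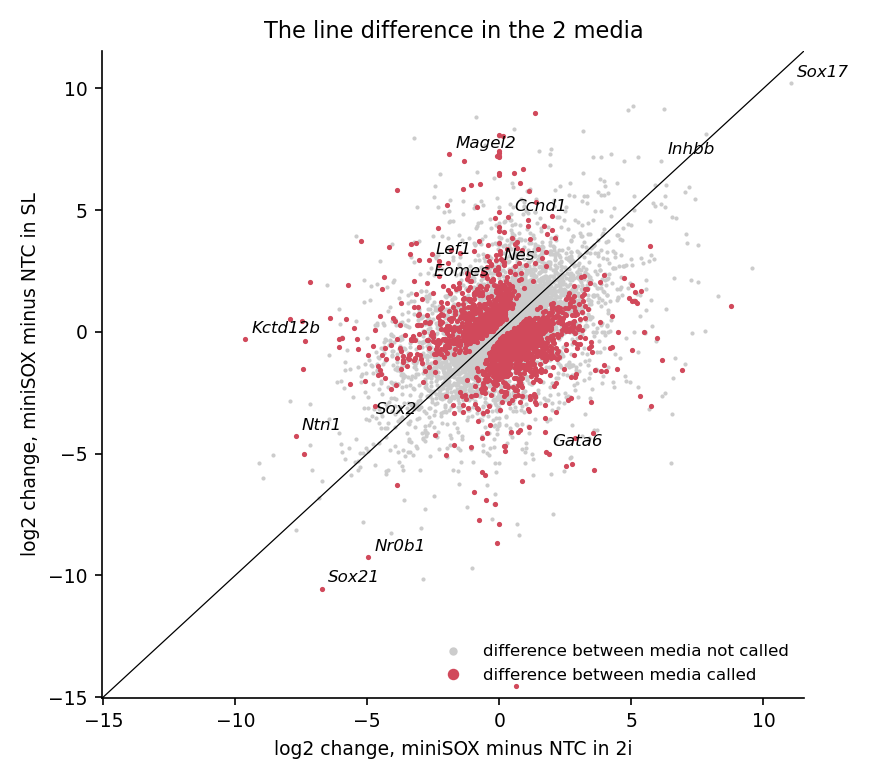
Log2 change of miniSOX against NTC in SL (vertical axis) against that in 2i (horizontal axis), 1 point per gene for 16443 genes, with the line of equality and the 2248 genes called for a difference between media in red. Sox2, Sox17 and Inhbb lie near the line, Gata6 lies below it, and Eomes, Lef1, Ccnd1 and Magel2 lie above it.

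Set against the FNV line, miniSOX differed in SL in 2499 genes (15.2%), 1216 higher (7.4%) and 1283 lower (7.8%). Line and deposit coincide in this comparison as well, and leaving out FNV replicate 1, miniSOX replicate 1 or miniSOX replicate 2 gave 1473, 1250 and 1336 calls. Sox17 was lower in miniSOX (log2 difference -1.54 ± 0.45 SE, adjusted p = 0.033), and Sox2 did not pass (0.41 ± 0.48 SE, adjusted p = 0.65). Tinagl1 was 8 and 8 in FNV against 675 and 713 in miniSOX (6.58 ± 0.28 SE, adjusted p = 4.5e-09). Apobec2 was 12 and 14 in FNV against 211 and 246 (4.52 ± 0.35 SE, adjusted p = 3.5e-06). These genes were higher in miniSOX than in either FNV library. Lpin1, a phosphatidate phosphatase that acts in lipid synthesis, was 342 and 368 in FNV against 90 and 85 in miniSOX (-2.08 ± 0.13 SE, adjusted p = 4.8e-07), and 256 and 244 in NTC. Dnajb14, a co-chaperone gene, was 221 and 284 in FNV, 339 and 306 in NTC and 5395 and 6245 in miniSOX (2.15 ± 0.16 SE, adjusted p = 1.8e-06). Its change against NTC was 1.79 with the deposit term and 4.17 without it, and NTC library p31 stood at 1749 in 2i and NTC replicates 1 and 2 at 357 and 350. Tagln (4.18 ± 0.57 SE, adjusted p = 3.0e-04), Col1a1 (3.38 ± 0.50 SE, adjusted p = 5.0e-04) and Fgf5 (4.42 ± 0.75 SE, adjusted p = 0.0014) were higher in miniSOX than in FNV. Klf4 (-1.71 ± 0.30 SE, adjusted p = 0.0017) and Nr0b1 (-3.56 ± 0.88 SE, adjusted p = 0.014) were lower. Pdk1, Ccnd1 and Inhbb, whose changes against NTC are given above, differed from FNV by 0.87 ± 0.22 SE, adjusted p = 0.016, 0.19 ± 0.25 SE, adjusted p = 0.68 and -0.21 ± 0.60 SE, adjusted p = 0.87 respectively.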

How the data were processed

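Poly(A) RNA was sequenced from 21 libraries of 2TS22C cells. Per the submitters' processing notes, RSEM, Bowtie2 2.0 and the mm10 genome were used. The normalization software and the use of strand are not given in the sources used here, and reads of genes that overlap or lie antisense may be mixed. The authors' deposited unit was taken to be a score, normalized between libraries and rounded to whole numbers: once sorted, libraries differ nowhere by more than 3, with 66.3% of ranks equal throughout. Depth is unknown. A test for counts therefore could not be used.

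The test was limma 3.58.1 (R 4.3.3, trend and robust, two-sided) on log2(value + 1), with 8 groups and a deposit term over all 21 libraries (12 residual degrees of freedom), adjusted over 16443 genes without a filter. It was run on simulated data in which the miniSOX libraries carried the same deposit effect as the other libraries of the second set. That run therefore could not show whether the term describes the real miniSOX libraries. Columns p21 and p31 matched a group only. Coordinates are from GENCODE M21 (GRCm38, mm10), which located all 16443 identifiers. Lists are described by counts and medians, with no set test. Figures used matplotlib 3.10.9.

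The members, the 31 lists and the rule for named genes were chosen with earlier results of these data known. The rule takes Sox2 and Sox17, the 12 largest increases and decreases called in both fits (the higher group averaging at least 50, no overlap), up to 4 called members of each list, and the 8 smallest adjusted p of the media and FNV comparisons. The text names part of them, chosen after their values were seen, and some genes are not reported here. Alternatives covered the pseudocount (0.1 and 10), a mean of at least 50, repeated normalization, centring, step genes, the deposit term, the libraries in the model, the replicate number and each library.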

Additional observations from a re-analysis of the deposited data

Results flagged for a closer look

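The difference between media of miniSOX against NTC (the log2 change in SL minus that in 2i) passed the limma test for 54 of the 123 genes named here. That count leaves out some genes named only with the cell type markers. Of these, Pdgfra (-2.35, adjusted p = 0.0021), Dab2 (-2.39, adjusted p = 0.0012) and Col1a2 (3.76, adjusted p = 5.2e-04) passed the same test. Over all genes the test called 2248 (13.7%). Part of the named genes were picked by this same test or by large changes in SL, so these shares cannot be set against each other. Each value below was singled out because the test of that difference had an adjusted p under 0.05. The SL change was the higher one for Kctd12b (9.35), Magel2 (9.20), Sva (8.07), Ccr2 (7.33), Lef1 (5.61), Eomes (4.74), Ccnd1 (4.36), Fgf5 (4.14), Vim (3.49), Ntn1 (3.44), Gli1 (3.32), Tiam1 (2.95), Ifitm1 (2.84), Tagln (2.78), Nes (2.75), Nrp2 (2.38), Apobec2 (2.10), Egln3 (1.65), Nodal (1.60), Snrpn (1.42), Dsp (1.40), Slc7a11 (1.22), Tdg (1.14), Rex2 (0.99), Dnajb14 (0.86), Lifr (0.84), Ddx4 (0.60) and Stk31 (0.41). It was the lower one for Olfr901 (-8.59), Sgcz (-6.92), Otor (-6.90), Gata6 (-6.70), Nr0b1 (-4.28), Sox21 (-3.82), Mymx (-3.23), Sox13 (-2.82), Fig4 (-1.99), Kit (-1.95), Lpin1 (-1.92), Mt2 (-1.36), Mt1 (-1.13), Nanog (-0.98) and Asns (-0.54). Among genes named only as members of lists or markers, the SL change was the higher one for Slc16a3 (5.91), Tubb3 (5.08), Etv4 (4.22), Cdh2 (3.44), Col4a1 (3.004), Axin2 (2.47), Dusp5 (2.17), Tet3 (2.00), Pgk1 (1.72) and Pkm (1.29), and the lower one for Jak1 (-0.76). Adjusted p-values ranged from 9.4e-13 to 0.036. Step genes among them are Kctd12b, Sva, Ccr2, Olfr901 and Otor, whose values jump between 0 and higher levels. No explanation was weighed, and groups of 2 or 3 libraries are too small for a check of single libraries far from the others.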

How the results depend on the processing

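Against NTC in SL (3221 genes called), 8 other settings gave 2851 to 3374 calls: no deposit term, pseudocounts of 0.1 and 10, a mean of at least 50, repeated quantile normalization, centring, no step genes and no trend. Fitting the compared groups alone with no deposit term gave 6304 calls in SL, 1735 in 2i and 4508 against FNV in SL. The difference between media gave 1191 with no deposit term. Leaving out 1 library gave 1877 to 3724 calls in SL, 2718 to 4186 in 2i, 1272 to 2764 for the difference between media and 1250 to 2593 against FNV, where a group left with 1 library is assumed to vary like the others. With the replicate number as a block over the 16 numbered libraries (replicate block, no deposit term), 7198 genes were called in SL, 7248 in 2i, 4524 for the difference between media and 6484 against FNV. Same-numbered libraries did not deviate together (correlations of replicate differences from -0.044 to 0.056 over all pairs of groups, -0.039 for NTC and miniSOX in SL), so they share only a number. Chosen after seeing the data were the fit of these 16 libraries with neither term (7302 calls in SL), the fit of the second deposit alone in 2i (2842), the fits without NTC library p31, and all alternatives for list members.

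Of the single genes, Tiam1 (log2 change -0.08, not called) was at 0.83 in the fit of the compared groups alone, in the replicate block fit and in the 16-library fit, and it was called there, and leaving out NTC replicate 1 or 2 gave -0.01 and -0.14. Calls of Fig4, Pck2, Phgdh and Vim were lost with no deposit term, and that of Fgf5 with a pseudocount of 0.1. A pseudocount of 10 shrank the log2 changes of genes at or near 0 in either group by over 1.5 times (Ccr2, Cdh19, Magel2, Notum, Olfr901, Otor, Sgcz, Sva and Tmem92). List counts that moved by over 1.5 times stand beside each list, and without NTC library p31 other counts included 15 lower for glycolysis and hypoxia (from 10), 9 lower for naive pluripotency (from 6) and 6 higher for formative and primed pluripotency (from 4). The unknown depth prevents any counting interval, and step genes and the shared top value limit both ends of the scale.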

Other observations

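Some other genes with large changes, chosen after their values were seen, belong to none of the lists. Both metallothionein genes, whose products bind zinc and copper, fell in miniSOX in SL. Mt1 was 21185 and 22912 in NTC and 1627 and 1574 in miniSOX (log2 change -1.95 ± 0.21 SE, adjusted p = 3.3e-05), and Mt2 was 25019 and 25019 in NTC and 3404 and 3375 in miniSOX (log2 change -1.82 ± 0.21 SE, adjusted p = 5.2e-05). Without the deposit term their log2 changes were -3.78 and -2.88. In the other rescued lines Mt1 was 2283 and 1880 (FNV) and 13688 and 11819 (SOX2). Kit, the receptor of stem cell factor, fell from 1769 and 1842 to 204 and 197 (log2 change -3.31 ± 0.23 SE, adjusted p = 6.3e-07), and in 2i it was 3404, 3536 and 4667 in NTC and 1621 and 1569 in miniSOX. Gli1, a target of Hedgehog signalling, rose from 55 and 68 to 514 and 462 (log2 change 2.93 ± 0.56 SE, adjusted p = 0.0025). In SL it was also 443 and 557 in FNV, and 102 and 128 in SOX2. In 2i it was 24, 28 and 82 in NTC and 31 and 28 in miniSOX. Values of NTC and miniSOX libraries in SL did not overlap for these 4 genes, as was so for 72.6% of all genes.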
